A study of Mus musculus with 8 samples.

Results

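Transcripts of 10 adhesion receptor genes were followed in mouse embryonic stem cell cultures that differed at Gtf2i or at Hprt. The genes were the integrin alpha subunit genes Itga3, Itga5, Itga6 and Itgav, the integrin beta subunit genes Itgb1, Itgb3 and Itgb5, the immunoglobulin superfamily genes Vcam1 and Icam1, and the hyaluronan receptor gene Cd44. They were taken by name, as every probe set whose single gene symbol was among the 10. This gave 34 probe sets for 10 of the 18193 genes with a symbol on the array. Gtf2i encodes the transcription factor TFII-I, and Hprt encodes a purine salvage enzyme. Total RNA was labelled and hybridised to 8 Affymetrix arrays, 2 in each of 4 groups. The wild-type cells carried neither mutation, and the labels did not name their line. The exon 2 mutant had the genotype Δexon2/+ at Gtf2i and was derived from R1 cells by gene targeting. The Hprt knockout had the genotype HPRT -/-. The trap line had the genotype HPRT -/-:GTF2I +/- and came from AB2.2 cells by a gene trap, so both it and the Hprt knockout are labelled as lacking Hprt. Each mutant group is a single line, so that a line and its mutation cannot be told apart. The sample numbers of the exon 2 mutant arrays lie apart from those of the other arrays. Whether they were run separately was not examined, and a separate run could not be told apart from that line. The labels call the 2 arrays of a group biological replicates without naming separate cultures, so the p-values rest on array-to-array spread, which may be technical.

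Integrins are receptors of an alpha and a beta subunit that bind matrix proteins outside the cell and connect, through adaptor proteins, to the actin cytoskeleton. Itgb1 pairs with many alpha subunits. With Itga5 it forms the classical fibronectin receptor, and with Itga3 or Itga6 it forms laminin receptors. Itgav pairs with Itgb1, Itgb3 or Itgb5 and binds vitronectin and related ligands. Embryonic stem cells use integrins to hold to laminin and other matrix, and Itga6 is a familiar surface protein of these cells. Vcam1 and Icam1 bind leukocyte integrins and are induced by inflammatory cytokines through NF-kB. Cd44 binds hyaluronan and is abundant on fibroblasts.

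The stem cells were cultured on feeder cells in medium with leukaemia inhibitory factor (LIF). The RNA could therefore hold transcripts of either cell type, and markers of both were read beside the receptors. Values are log2 RMA intensities, and the level used as a filter, the 40th percentile of an array, averaged log2 5.36. All 12 stem cell markers (Pou5f1, Nanog and others) lay above it in each group. Their summed linear intensity was 57548 to 57943 for wild-type, 66578 to 69494 for the exon 2 mutant, 72928 to 74595 for the Hprt knockout and 68690 to 70166 for the trap line. The 21 feeder fibroblast markers (Col1a1, Lum, Prrx1 and others) summed to 154528 to 155228 for wild-type, 110277 to 111727 for the exon 2 mutant and 109701 to 110243 for the trap line. In the Hprt knockout they summed to only 7229 to 7378, with Lum and Fap below the filter level there. The endothelial markers Cdh5, Tie1 and Emcn and the leukocyte markers Ptprc, Itgam and Tyrobp lay below that level in each group. Many others of these lists did not. Of 10 endothelial markers, 5 lay above it on both arrays for wild-type, 7 for the exon 2 mutant, 7 for the Hprt knockout and 6 for the trap line. Of 10 leukocyte markers 7, 6, 5 and 7 did, in the same order. The endothelial sum over 10 markers was 808 to 839 for wild-type, 1197 to 1227 for the exon 2 mutant, 1642 to 1738 for the Hprt knockout and 942 to 952 for the trap line. The leukocyte sum over 10 markers was 2060 to 2149, 2079 to 2124, 3123 to 3130 and 2612 to 2619 in the same order. The 10 primitive endoderm markers summed to 1286 to 1321, 850 to 894, 1593 to 1628 and 1390 to 1414. Over the 13812 genes tested, arrays of a group correlated at 0.997 to 0.998, and the Hprt knockout stood apart, at 0.866 with wild-type. Hprt had mean log2 values of 12.08 for wild-type, 12.25 for the exon 2 mutant, 10.04 for the Hprt knockout and 10.74 for the trap line. Gtf2i had 10.12, 10.48, 10.90 and 10.09 in the same order, and where its probes lie relative to either mutation was not analysed here.

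The 10 genes did not share a single order of the groups. Vcam1, Cd44, Itgav, Itgb1, Itgb3 and Itgb5 were lowest in the Hprt knockout, as were the fibroblast markers, and were intermediate or high in the other groups. Icam1 and Itga6 were instead lowest in wild-type. Itga3 was highest in the Hprt knockout. Itga5 was high in wild-type only, and its level in the trap line was 2.25-fold lower, although Vcam1, Itgb3 and Itgb5 did not pass the test between those groups. Gene by gene, with every array shown, these patterns were as follows. All 10 genes had at least 1 probe set past the filter. Vcam1 and Itgb3 passed it through the other 6 arrays, since both arrays of the Hprt knockout lay below the level.

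**Figure D1:**
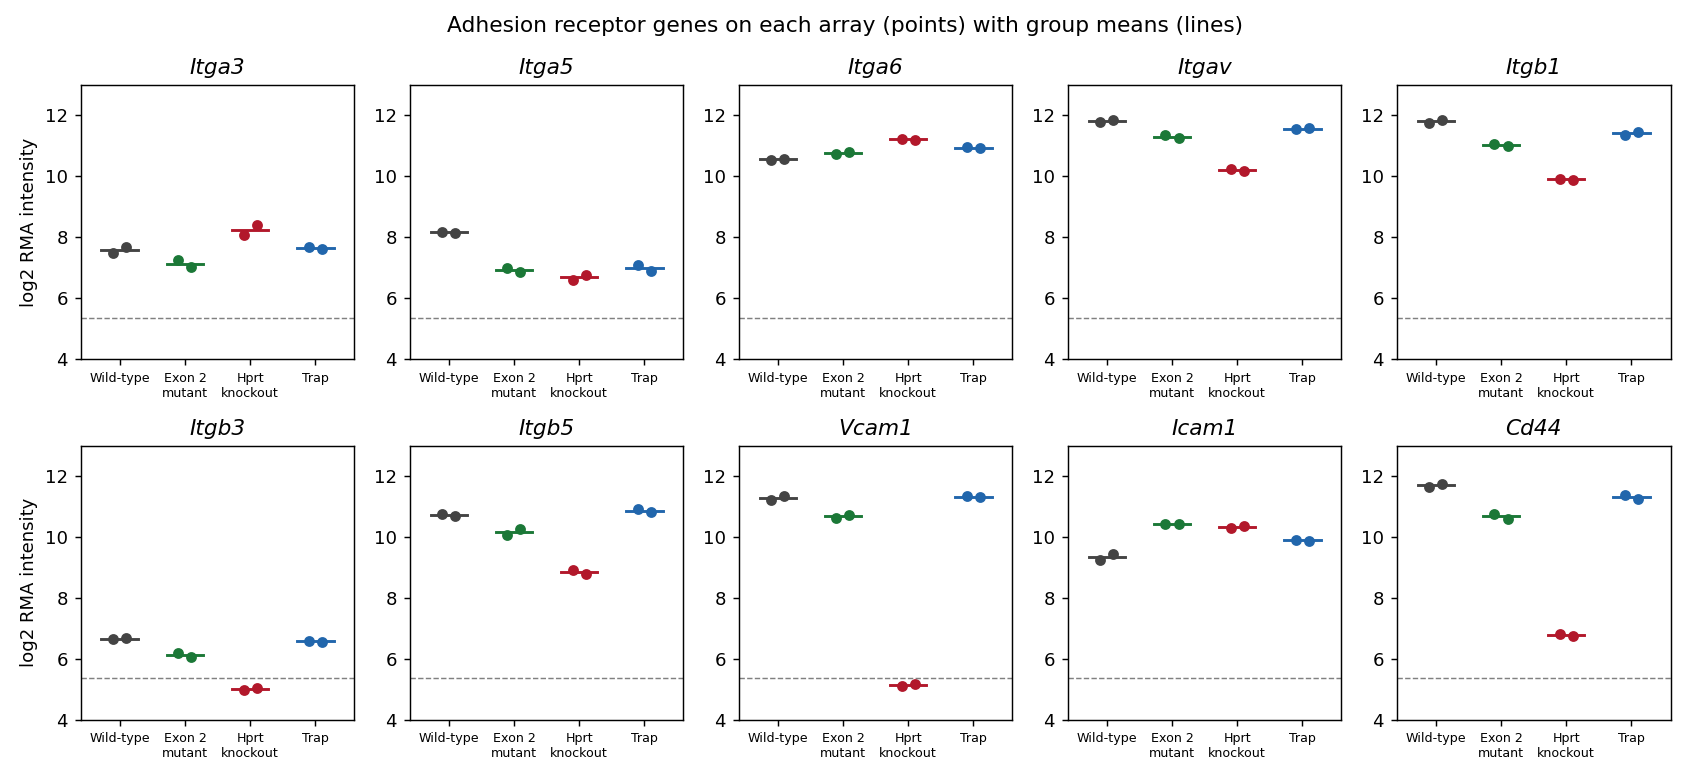
Log2 RMA intensity of the 10 genes, each on its brightest probe set, for the 2 arrays of each group (points) and the group mean (line); the dashed line is the mean filter level, log2 5.36. Vcam1 in the Hprt knockout sits at 5.12 and 5.16, below that level, against 10.63 or more on the other 6 arrays, while Icam1 is lowest in wild-type.

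The promoter sequences of 4 genes are shown because these genes had different orders of the groups: Icam1 was lowest in wild-type, Itga5 was high in wild-type alone, and Itgb1 and Itgb5 were lowest in the Hprt knockout. RefSeq promoter windows on GRCm38.p6 were found for 7 of the 10 genes, and those shown are the 250 bases before a start that coincides with the gene's start in the RefSeq gene table. They lie at chr9:21015690-21015939 (plus strand) for Icam1, chr15:103366792-103367041 (minus strand) for Itga5, chr8:128685404-128685653 (plus strand) for Itgb1 and chr16:33829415-33829664 (plus strand) for Itgb5. Capitals mark GGGCGG, the GC box, or its reverse complement.
Icam1: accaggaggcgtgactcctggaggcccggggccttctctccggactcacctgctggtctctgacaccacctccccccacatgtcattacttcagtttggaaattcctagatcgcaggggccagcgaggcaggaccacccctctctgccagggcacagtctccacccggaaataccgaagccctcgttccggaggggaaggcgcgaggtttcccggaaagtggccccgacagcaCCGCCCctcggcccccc
Itga5: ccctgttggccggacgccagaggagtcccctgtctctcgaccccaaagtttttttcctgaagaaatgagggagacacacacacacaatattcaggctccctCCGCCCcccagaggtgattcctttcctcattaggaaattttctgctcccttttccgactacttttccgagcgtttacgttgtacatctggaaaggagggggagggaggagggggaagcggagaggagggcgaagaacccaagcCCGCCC
Itgb1: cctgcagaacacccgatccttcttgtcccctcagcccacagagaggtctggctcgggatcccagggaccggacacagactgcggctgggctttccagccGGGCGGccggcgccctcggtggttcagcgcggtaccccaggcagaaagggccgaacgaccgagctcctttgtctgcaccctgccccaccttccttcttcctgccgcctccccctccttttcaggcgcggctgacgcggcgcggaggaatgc
Itgb5: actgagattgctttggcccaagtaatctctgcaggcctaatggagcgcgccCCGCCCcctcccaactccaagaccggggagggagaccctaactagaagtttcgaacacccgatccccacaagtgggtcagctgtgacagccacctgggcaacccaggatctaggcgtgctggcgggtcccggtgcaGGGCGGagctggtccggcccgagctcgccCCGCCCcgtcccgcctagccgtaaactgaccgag
Each was searched on both strands for GGGCGG, for a strict kappaB consensus of NF-kB and for the AP-1 motif TGANTCA. An interferon response motif, GAAA and GAAA with any 2 bases between them, was also searched for. The kappaB consensus was GGG, then A or G, any 2 bases, 2 of C or T, and CC. Looser kappaB sites were not searched for. The GC box was found in all 4 upstream stretches, at 1 place in Icam1 and in Itgb1, 2 in Itga5 and 3 in Itgb5. Of all 32851 promoter windows of 300 bases, 35.7% held a GC box, 8.46% the kappaB consensus, 7.81% TGANTCA and 3.44% the interferon response motif. The last 3, as defined here, had no match in the windows of these 4 genes. The Icam1 stretch does hold tggaaattcc, which differs from the kappaB consensus searched for only in its first base. A match is a description of letters, and no match says only that these letters are not in these windows.

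Vcam1, the receptor for the leukocyte integrin of Itga4 and Itgb1, had the widest range. On its brightest probe set (1448162_at, chromosome 3) the arrays read 11.23 and 11.35 for wild-type, 10.63 and 10.72 for the exon 2 mutant, 5.12 and 5.16 for the Hprt knockout, and 11.33 and 11.31 for the trap line. The Hprt knockout was far below the rest and the exon 2 mutant lay below wild-type and trap, which overlapped. Against wild-type, Vcam1 was lower by log2 -6.15 ± 0.06 (SE) in the Hprt knockout (adjusted p = 4.04e-09) and by -0.61 ± 0.06 in the exon 2 mutant (adjusted p = 0.000217), by limma with Benjamini-Hochberg adjustment, as throughout. The trap line differed from wild-type by 0.033, with a 95% interval of -0.11 to 0.18 (adjusted p = 0.704), although 1 of its 3 probe sets was lower there (-0.32, adjusted p = 0.0300). Since the Hprt knockout lay below the filter level, the size of that fold depends on the array background. The other 2 probe sets also read lower in the Hprt knockout, by -3.20 and -3.69, so that the size depended on the probe set as well. In bulk RNA, fewer cells of a type and less RNA per cell cannot be told apart. In the Hprt knockout against wild-type, all 21 feeder fibroblast markers fell, with a median of -4.69, and their part in the result was not tested.

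Cd44 kept nearly the same order. Its arrays (1434376_at, chromosome 2) read 11.66 and 11.73 for wild-type, 10.77 and 10.59 for the exon 2 mutant, 6.83 and 6.76 for the Hprt knockout, and 11.37 and 11.26 for the trap line. No groups overlapped, and the Hprt knockout stayed above the filter level. Cd44 was lower than in wild-type by -4.90 ± 0.08 in the Hprt knockout (adjusted p = 1.25e-08), -1.02 ± 0.08 in the exon 2 mutant (adjusted p = 7.23e-05) and -0.38 ± 0.08 in the trap line (adjusted p = 0.00768). The trap call was lost without the second trap array, where the value was -0.32, and was kept in the other alternatives. All 3 tested probe sets were lower in each of these comparisons, and 1 of the 4 lay below the filter level.

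Itgb1, the common beta subunit, followed the same order of groups. On probe set 1426918_at (chromosome 8) it read 11.75 and 11.85 for wild-type, 11.06 and 10.98 for the exon 2 mutant, 9.92 and 9.87 for the Hprt knockout, and 11.37 and 11.44 for the trap line. Each group was separate from the next. The fall against wild-type was -1.90 ± 0.06 in the Hprt knockout (adjusted p = 3.29e-07), -0.78 ± 0.06 in the exon 2 mutant (adjusted p = 8.75e-05) and -0.40 ± 0.06 in the trap line (adjusted p = 0.00263). In contrast to Vcam1, the signal in the Hprt knockout stayed far above the filter level. The fibroblast markers there had a median of log2 7.03 and ran from 4.01 (Fap) to 10.41 (Acta2), and their part was not tested. The 3 tested probe sets of 6 agreed in direction, with -1.12 to -1.90 in the Hprt knockout, and the dimmest of them did not pass in the trap line (-0.26, adjusted p = 0.0786). The mean of all 6 gave -0.96 in the Hprt knockout, still called.

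Itgav, the alpha subunit of vitronectin receptors, was close to Itgb1 in its course. Its arrays (1452784_at, chromosome 2) read 11.79 and 11.83 for wild-type, 11.34 and 11.25 for the exon 2 mutant, 10.23 and 10.18 for the Hprt knockout, and 11.55 and 11.58 for the trap line. The groups did not overlap. Itgav was lower than in wild-type by -1.61 ± 0.05 in the Hprt knockout (adjusted p = 4.11e-07), -0.51 ± 0.05 in the exon 2 mutant (adjusted p = 0.000284) and -0.24 ± 0.05 in the trap line (adjusted p = 0.0118). The trap call was lost without the second wild-type array (-0.22, adjusted p = 0.0655), without the first trap array (-0.23, adjusted p = 0.0685) and for the mean of its probe sets (-0.11, adjusted p = 0.159). The mean of its probe sets gave -0.45 in the Hprt knockout and -0.23 in the exon 2 mutant, both called. Of its 5 probe sets 3 were tested. The second of these gave -0.82 in the Hprt knockout, and the dimmest did not pass in any comparison with wild-type.

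The beta partners of Itgav differed in brightness but shared its fall in the Hprt knockout. Itgb5 (1417533_a_at, chromosome 16) read 10.76 and 10.68 for wild-type, 10.08 and 10.25 for the exon 2 mutant, 8.92 and 8.78 for the Hprt knockout, and 10.92 and 10.82 for the trap line. It fell against wild-type by -1.88 ± 0.08 in the Hprt knockout (adjusted p = 1.31e-06) and by -0.56 ± 0.08 in the exon 2 mutant (adjusted p = 0.00111). The trap line, with the highest values, did not differ from wild-type by the test (0.14, 95% interval -0.05 to 0.34, adjusted p = 0.198). All 4 probe sets of Itgb5 gave these calls. Itgb3 (1455257_at, chromosome 11) read 6.64 and 6.69 for wild-type, 6.20 and 6.05 for the exon 2 mutant, 4.99 and 5.05 for the Hprt knockout, and 6.59 and 6.56 for the trap line. Its signal was near the filter level throughout and below it in the Hprt knockout. Against wild-type Itgb3 fell by -1.65 ± 0.07 in the Hprt knockout and by -0.54 ± 0.07 in the exon 2 mutant (adjusted p = 8.66e-07 and 0.000499), and the trap line did not pass (-0.090, 95% interval of wild-type over trap -0.06 to 0.25, adjusted p = 0.314). A dimmer second probe set of Itgb3 passed in none of these 3 comparisons and read -0.038 in the Hprt knockout, so the fall of Itgb3 rests on a single probe set. The mean of both gave -0.84 in the Hprt knockout, still called.

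Itga5, the alpha subunit of the fibronectin receptor, was set apart by its level in the trap line. On probe set 1423267_s_at (chromosome 15) the arrays read 8.19 and 8.13 for wild-type, 6.99 and 6.86 for the exon 2 mutant, 6.61 and 6.75 for the Hprt knockout, and 7.08 and 6.89 for the trap line. Both wild-type arrays lay above all others, and the exon 2 mutant and the trap line overlapped. Itga5 was lower than in wild-type by -1.23 ± 0.09 in the exon 2 mutant (adjusted p = 5.15e-05), -1.17 ± 0.09 in the trap line (adjusted p = 0.000109) and -1.48 ± 0.09 in the Hprt knockout (adjusted p = 5.65e-06). All 4 probe sets were lower in each of these comparisons, by -0.39 to -1.42, -0.35 to -1.48 and -0.55 to -1.96, with the other 3 much dimmer than this one. The 2 dimmest passed the filter through the 2 wild-type arrays alone and lay below the level in every other group. Their direction in these comparisons was thus partly fixed by the filter. The second brightest, above the level on 7 arrays, gave -1.42, -1.48 and -1.92 in the same order. These comparisons share the wild-type arrays, so a value peculiar to those arrays would enter all of them. The trap line and the exon 2 mutant did not differ by the test (0.060, 95% interval -0.14 to 0.26, adjusted p = 0.600). The trap line was above the Hprt knockout by 0.31 ± 0.09 (adjusted p = 0.0160), a call lost without the first Hprt knockout array (0.24, adjusted p = 0.0881), without the first trap array (0.21, adjusted p = 0.0965) and with arrays centred on stem cell markers (0.026, adjusted p = 0.791). The feeder markers rose in all 21 cases in that comparison, with a median of 4.07.

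Icam1, a ligand of leukocyte integrins, had its lowest values in wild-type. Its only probe set (1424067_at, chromosome 9) read 9.26 and 9.44 for wild-type, 10.42 on both arrays of the exon 2 mutant, 10.30 and 10.36 for the Hprt knockout, and 9.90 and 9.88 for the trap line. Wild-type and trap were separate from each other and from the other groups. Icam1 was higher than in wild-type by 1.07 ± 0.07 in the exon 2 mutant (adjusted p = 4.01e-05), 0.98 ± 0.07 in the Hprt knockout (adjusted p = 1.46e-05) and 0.54 ± 0.07 in the trap line (adjusted p = 0.00108). The exon 2 mutant and the Hprt knockout did not differ by the test (0.091, 95% interval -0.07 to 0.26, adjusted p = 0.291). Other NF-kB target genes had a different order: in the Hprt knockout 14 of 15 fell against wild-type and none rose, among them Il6 (-8.12), Ccl2 (-7.04) and Cxcl5 (-9.48), with Il6 and Cxcl5 below the filter level there and Ccl2 at log2 5.94. Of all genes 25.1% were lower and 46.4% higher there. All 21 feeder fibroblast markers also fell in that comparison, with a median of -4.69 against -2.99 for the NF-kB target genes. The part of the feeder markers was not tested. Icam1 rose where 14 of the 15 NF-kB target genes and Vcam1 fell.

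Itga6, the laminin receptor subunit, had a narrow range, and against wild-type it moved in the opposite direction to Itgb1 in all 3 lines. On probe set 1422445_at (chromosome 2) it read 10.53 and 10.58 for wild-type, 10.74 and 10.79 for the exon 2 mutant, 11.24 and 11.21 for the Hprt knockout, and 10.95 and 10.91 for the trap line. No groups overlapped. Itga6 was higher than in wild-type by 0.66 ± 0.05 in the Hprt knockout (adjusted p = 2.18e-05), 0.38 ± 0.05 in the trap line (adjusted p = 0.00140) and 0.21 ± 0.05 in the exon 2 mutant (adjusted p = 0.0112). The last call was lost without the first wild-type array (0.18, adjusted p = 0.0662), without the second exon 2 mutant array (0.18, adjusted p = 0.0503), under cyclic loess (0.11, adjusted p = 0.112) and with arrays centred on stem cell markers (0.11, adjusted p = 0.252). That centring also turned the trap value to -0.11 (adjusted p = 0.183). The other probe set gave 0.41 to 0.87 and passed in all 3 comparisons with wild-type.

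Itga3, another laminin receptor subunit, was noisier. Its arrays (1455158_at, chromosome 11) read 7.48 and 7.67 for wild-type, 7.24 and 7.03 for the exon 2 mutant, 8.06 and 8.41 for the Hprt knockout, and 7.67 and 7.62 for the trap line. Wild-type and trap overlapped. Against wild-type, Itga3 rose by 0.66 ± 0.13 in the Hprt knockout (adjusted p = 0.00293) and fell in the exon 2 mutant by -0.44 ± 0.13 (adjusted p = 0.0242). In the Hprt knockout the dimmest of its 3 probe sets did not pass (0.25, adjusted p = 0.118). The fall in the exon 2 mutant did not pass without the second wild-type array (-0.35, adjusted p = 0.126) or without the second exon 2 mutant array (-0.33, adjusted p = 0.119), and its 2 dimmer probe sets, at -0.11 and -0.21, did not pass. The mean of the probe sets gave 0.43 in the Hprt knockout and -0.25 in the exon 2 mutant, both called. Trap and wild-type differed by 0.068 (95% interval -0.24 to 0.38, adjusted p = 0.711).

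**Figure D2:**
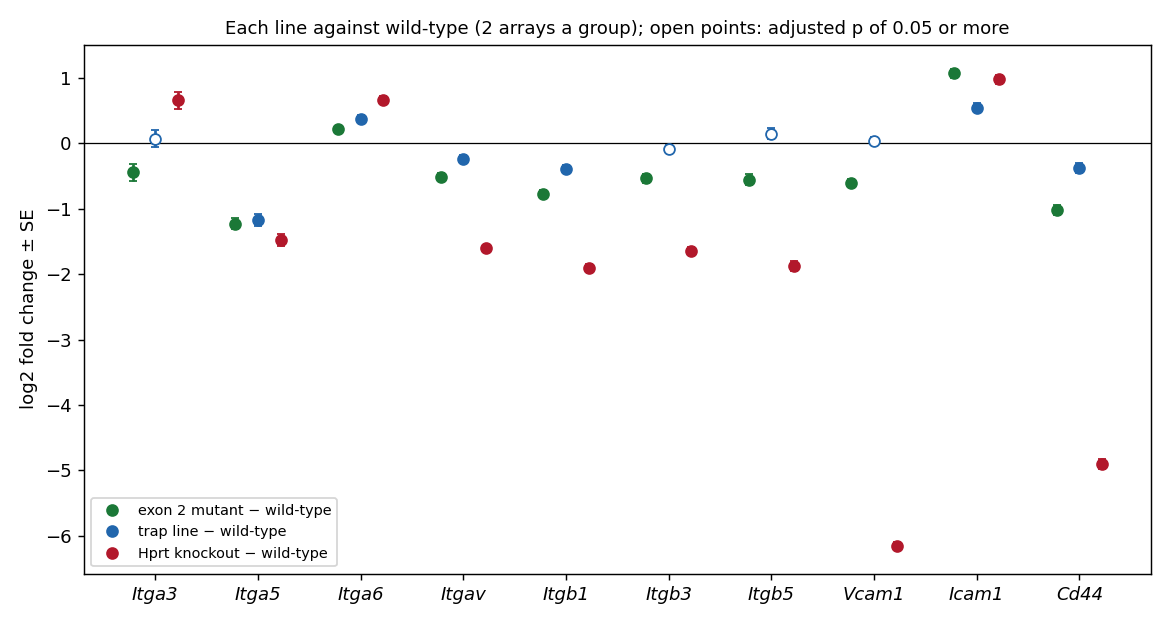
Log2 fold change of each gene against wild-type with its standard error, for the exon 2 mutant, the trap line and the Hprt knockout (2 arrays a group); filled points passed an adjusted p of 0.05. In the Hprt knockout Vcam1 and Cd44 fell by -6.15 and -4.90, Itga5 was lower in all 3 lines (-1.23, -1.17 and -1.48), and Icam1 was higher in all 3.

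**Figure D3:**
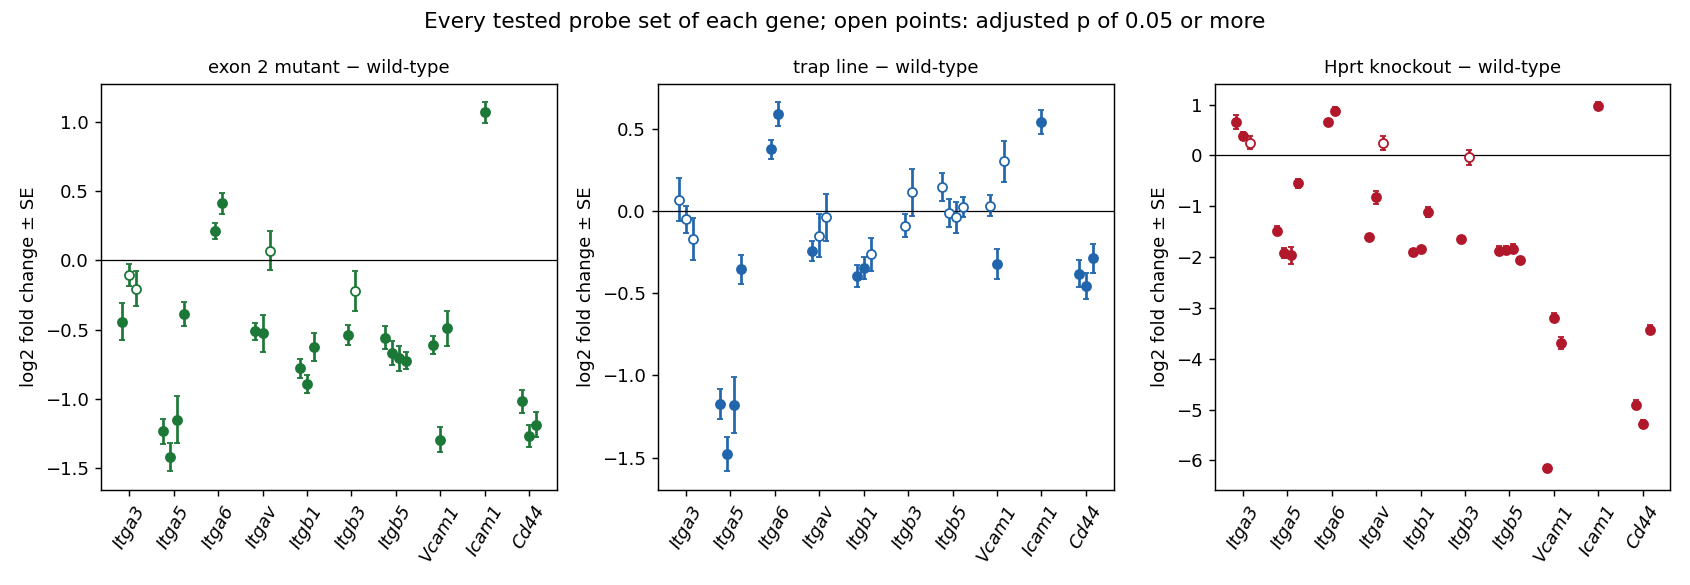
Log2 fold change against wild-type with its standard error for each of the 28 tested probe sets, ordered by brightness within a gene; filled points passed an adjusted p of 0.05 over all 28768 probe sets tested. The 4 probe sets of Itga5 all lie below 0 in each panel, while those of Itgav and Itgb3 include dim ones that did not pass. The 2 dimmest of Itga5 passed the filter through the wild-type arrays alone, which partly fixes their direction.

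Read by comparison, the exon 2 mutant was set beside wild-type for the effect of losing exon 2 on 1 copy of Gtf2i. Itga6 and Icam1 rose and the other 8 genes fell. All 10 genes thus passed, where 55.6% of the 13812 genes tested passed, 32.5% as higher and 23.1% as lower. The median of the 10 was -0.55, against 0.03 for all genes. The feeder markers fell in 20 of 21 cases in this comparison and none rose, with a median of -0.57, and their part in these falls was not tested. The stem cell markers rose in 10 of 12 cases, with a median of 0.28. With the Hprt knockout arrays left out of the fit, an alternative chosen after the data were seen, all 10 genes again passed.

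The Hprt knockout was compared with wild-type, as the 2 controls without a Gtf2i mutation. Itga3, Itga6 and Icam1 rose and 7 genes fell, where 71.5% of all genes passed, 46.4% as higher and 25.1% as lower. The median of the 10 was -1.63, against 0.16 for all genes, with the feeder markers at -4.69 and the stem cell markers at 0.39. Trap line and Hprt knockout are both labelled HPRT -/-, and the labels do not say whether they carry the same allele. Hprt itself was higher in the trap line by 0.71 ± 0.05 (adjusted p = 1.35e-05). Gtf2i was lower there by -0.82 ± 0.05 than in the Hprt knockout (adjusted p = 9.84e-06), but did not differ from wild-type by the test (-0.033, adjusted p = 0.638). Here Itga3 (-0.59 ± 0.13), Itga6 (-0.29 ± 0.05) and Icam1 (-0.44 ± 0.07) fell and 7 genes rose, where 68.4% of all genes passed, 26.6% as higher and 41.8% as lower. Cd44 rose by 4.52 ± 0.08, Itgb5 by 2.02 ± 0.08, Itgb1 by 1.51 ± 0.06 and Itgav by 1.36 ± 0.05, though for the mean of all probe sets Itgb1 rose by only 0.68 and Itgav by only 0.34. Vcam1 rose by 6.18 and Itgb3 by 1.56 from a level below the filter in the Hprt knockout, so these sizes depend on background. The other probe sets of Vcam1 gave 2.87 and 3.99, and that of Itgb3 gave 0.15 and did not pass (adjusted p = 0.407). The fall of Itga6 was -0.13 under cyclic loess and did not pass (adjusted p = 0.0501).

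Between trap line and wild-type fewer of the genes differed. Itga6 and Icam1 rose, Itga5, Itgav, Itgb1 and Cd44 fell, and Itga3, Itgb3, Itgb5 and Vcam1 did not pass. These 6 of 10 compare with 41.1% of all genes, 26.5% higher and 14.6% lower. The feeder markers had 3 rises and 11 falls among 21 there, with a median of -0.33. Centring the arrays on the stem cell markers, by their median on each array, moved the median of all genes by -0.49 in this comparison. Gene by gene the markers had a median change of only 0.23, so the shift was larger than theirs. On that scale Itga3, Itgb3, Itgb5 and Vcam1 passed as lower (-0.34 to -0.58), and Icam1 did not pass (0.055, adjusted p = 0.544). Exon 2 mutant and trap line carry different mutations of Gtf2i and were also set side by side. In the exon 2 mutant 8 genes were lower than in the trap line and Icam1 was higher (0.53 ± 0.07, adjusted p = 0.000874), while Itga5 did not pass. Of all genes 49.2% passed there, 24.5% as higher and 24.7% as lower. Among the falls were Itgb5 (-0.70 ± 0.08), Vcam1 (-0.64 ± 0.06) and Cd44 (-0.64 ± 0.08). The call of Itga3 was lost without the second exon 2 mutant array (-0.40, adjusted p = 0.0817), the first trap array (-0.49, adjusted p = 0.0737) or the second (-0.54, adjusted p = 0.0557). The call of Itga6 was lost without the first exon 2 mutant array (-0.14, adjusted p = 0.120), the first trap array (-0.15, adjusted p = 0.142) or the second (-0.18, adjusted p = 0.0808). The other 2 tested probe sets of Itga3 read -0.055 and -0.036 and did not pass, so its fall rests on 1 of 3. Centring the arrays on stem cell markers moved the median of all genes by 0.38 here. Gene by gene these markers had a median change of only 0.011, with 8 of 12 not called, so the shift was larger than theirs. On that scale Itga3 (-0.13), Itgav (0.11), Itgb1 (-0.0029) and Itgb3 (-0.067) did not pass, Itga5 (0.32, adjusted p = 0.0108) and Itga6 (0.22, adjusted p = 0.0256) passed as higher, and Itgb5 (-0.32), Vcam1 (-0.26), Cd44 (-0.26) and Icam1 (0.91) kept their calls. For the mean of all probe sets Itga3 (-0.20) and Itgav (-0.12) did not pass. Against the Hprt knockout the exon 2 mutant had 7 genes higher and 2 lower (Itga3 and Itga6), and Icam1 did not pass. Of all genes 61.2% passed there, 24.9% as higher and 36.3% as lower. All 21 feeder markers rose in this comparison, with a median of 4.06, and their part in it was not tested. Its small rise in Itga5 (0.24 ± 0.09, adjusted p = 0.0421) was lost without the first exon 2 mutant array (0.18) and without the first Hprt knockout array (0.18).

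The effect of the exon 2 mutation against wild-type and that of the trap against the Hprt knockout share no array, so their difference could be tested. It passed for 9 of the 10 genes, with 2 above 0 (Itga6 and Icam1) and 7 below 0. Of all genes 69.7% passed, 42.6% above 0 and 27.1% below 0. For those 9 genes the exon 2 mutant against wild-type and the trap line against the Hprt knockout had opposite signs, and Itga3 fell in both comparisons. The signs depend on the comparator: with both lines set against wild-type, Itga5, Itgav, Itgb1 and Cd44 fell in both, and Icam1 and Itga6 rose in both. The labels do not say whether the wild-type cells are the parent of either line. The feeder markers had medians of -0.57 and 4.07 in these comparisons, and their part in the difference was not tested.

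The balance of subunits that pair with each other was read as the difference of their log2 values on each array, relative to wild-type. It says nothing of protein, nor of whether both RNAs came from the same cells of the mixed cultures. The feeder markers had a median of -4.69 in the Hprt knockout against wild-type, and their part in the balance was not tested. Itga5 less Itgb1 was -0.43 and -0.48 in the exon 2 mutant, -0.65 and -0.91 in the trap line, and 0.33 and 0.52 in the Hprt knockout. Itga5 thus fell further than Itgb1 in the exon 2 mutant and trap line, and less far in the Hprt knockout. Itga6 less Itgb1 was 0.92 and 1.06 in the exon 2 mutant, 0.83 and 0.72 in the trap line, and 2.55 and 2.58 in the Hprt knockout. This was the widest change of balance with that of Itga3 and Itgb1 (2.36 and 2.76 in the Hprt knockout). Both sizes depend on the probe set, since the mean of all Itgb1 probe sets fell by only -0.96 there. Itgav less Itgb3 was -0.0051 and 0.056 in the exon 2 mutant and -0.18 and -0.13 in the trap line, and it is not read in the Hprt knockout, where Itgb3 lay below the filter level. With 2 arrays against 2 an exact permutation test cannot go below p = 0.333, and no test was made of these differences.

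**Figure D4:**
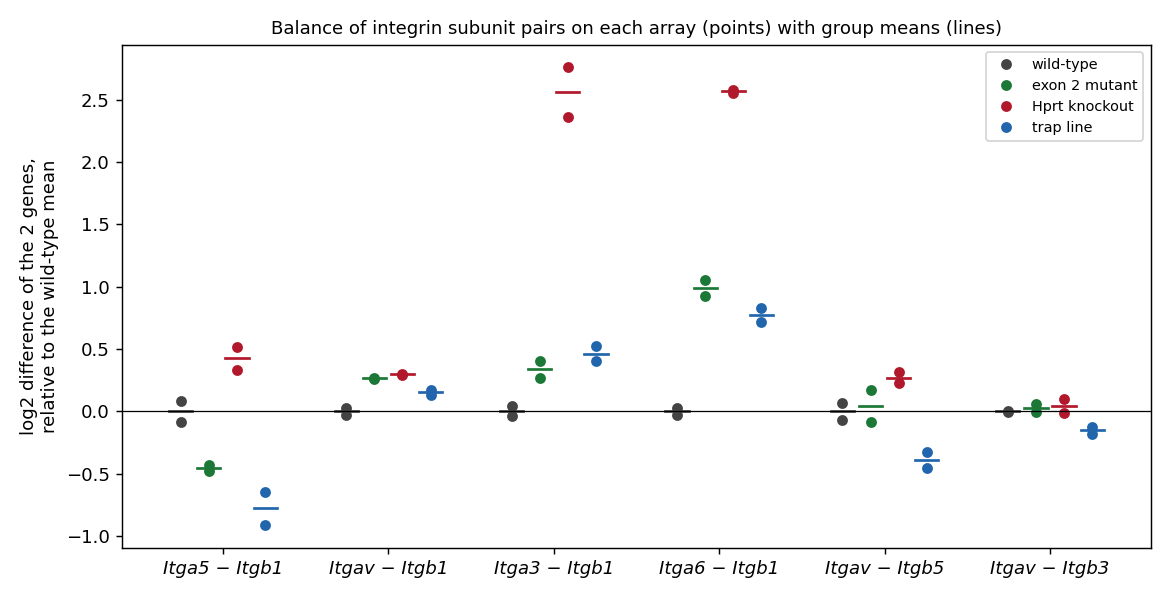
Difference of the log2 values of 2 integrin genes on each array, relative to the wild-type mean (points are arrays, lines are group means). Itga6 less Itgb1 reaches 2.55 and 2.58 in the Hprt knockout, and Itga5 less Itgb1 is below 0 in the exon 2 mutant and the trap line but above 0 in the Hprt knockout.

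Likeness of pattern was measured by Pearson's r over the 8 arrays, which are 4 lines of 2, and is given as a description. Among the 10 genes Itgav and Itgb1 were most alike (0.995), followed by Vcam1 and Cd44 (0.994), Itgb3 with Itgav (0.993) and Itgb5 with Itgb3 (0.984), where Vcam1 and Itgb3 include 2 arrays under the filter level. Itga5 was most like Itgb1 at only 0.759, Icam1 most like Itga6 at 0.652, and Itga3 and Itga6 reached 0.700. Of all tested genes, those most like Vcam1 were Lgals1 (1.000), Cd47 (0.999) and the fibroblast marker Fbln2 (0.999). Those most like Itga5 were Chsy3 (0.993), Csrp1 (0.990), a LIM protein gene of the actin cytoskeleton, and Cdh19 (0.989). Those most like Itgb1 were Mbnl1, Chil1 and Ier5 (0.998 to 0.999), and those most like Icam1 were Cep95, Ormdl1 and Bcar3 (0.997).

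The gene lists that follow are read beside the shares of all genes, which against wild-type were 32.5% higher and 23.1% lower for the exon 2 mutant, 26.5% and 14.6% in the trap line, and 46.4% and 25.1% in the Hprt knockout. Of 18 other integrin subunits 14 were tested, and against wild-type 2 rose and 4 fell in the exon 2 mutant (median -0.17), 3 and 3 in the trap line (median 0.16), and 3 and 7 in the Hprt knockout (median -0.30). Itga1, a collagen receptor subunit, fell in the exon 2 mutant (-1.21 ± 0.09) and in the Hprt knockout (-2.71 ± 0.09, to below the filter level). Itga8 fell in the exon 2 mutant (-1.15 ± 0.09), and Itgb8 fell in the exon 2 mutant (-1.01 ± 0.16) and in the Hprt knockout (-2.12 ± 0.16, also to below that level). Itga4, the alpha subunit of the receptor for Vcam1, rose in the trap line against wild-type (1.13 ± 0.12).

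Adaptors that join integrins to actin, of which 20 of 22 were tested, were mostly lower than in wild-type. The exon 2 mutant had 14 falls and 3 rises (median -0.52) and the trap line 13 and 3 (median -0.34), and in the Hprt knockout 15 fell and 3 rose (median -0.88). Vcl, which encodes vinculin, was lower in all 3 lines, by -1.78 ± 0.05, -1.66 ± 0.05 and -2.74 ± 0.05. The LIM domain gene Lims2 fell by -1.18 and -1.07 in the exon 2 mutant and trap line, and the kindlin gene Fermt2 by -1.05 in the trap line. Cav1, which encodes caveolin, fell by -4.84 ± 0.07 in the Hprt knockout, where the feeder marker median was -4.69. In the trap line the median of the feeder markers was -0.33, and their part was not tested.

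Of 19 matrix ligands of integrins and Cd44, 15 were tested. In the exon 2 mutant 13 fell and none rose (median -0.57), in the trap line 11 fell and 1 rose (median -0.54), and in the Hprt knockout 11 fell and 2 rose (median -2.61). The feeder markers had medians of -0.57, -0.33 and -4.69 in the same order, with Col1a1 and Postn on both lists, and their part was not tested. The matricellular genes Ccn2, Ccn1 and Thbs1 fell in the exon 2 mutant (-2.80 ± 0.06, -2.67 ± 0.06 and -2.22 ± 0.08) and in the trap line (-3.71 ± 0.06, -3.34 ± 0.06 and -1.97 ± 0.08). Thbs1 fell further in the Hprt knockout (-5.17 ± 0.08), which has no labelled Gtf2i mutation. The hyaluronan synthase gene Has2 fell in the trap line (-1.65 ± 0.07). The collagen gene Col1a1 and Postn, both also fibroblast markers here, fell in the Hprt knockout (-5.72 and -5.70).

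Membrane linkers and sheddases of Cd44 and Icam1, 9 genes in all, had 3 rises and 4 falls in the exon 2 mutant, 4 and 1 in the trap line, and 3 and 5 in the Hprt knockout. The linker gene Ezr, which encodes ezrin, rose in the exon 2 mutant (0.54 ± 0.05) and its relative Msn, which encodes moesin, fell (-0.44 ± 0.05). The sheddase gene Mmp14 fell in the Hprt knockout (-3.55 ± 0.05). Ankrd1, a nuclear cofactor gene that stood in this list without being a linker, fell in the exon 2 mutant (-2.42 ± 0.05), the trap line (-3.14 ± 0.05) and the Hprt knockout (-3.43 ± 0.05).

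Of 27 tested genes for other adhesion receptors 6 rose and 14 fell in the exon 2 mutant, 8 and 7 in the trap line, and 12 and 14 in the Hprt knockout. The shares that rose in the trap line and the Hprt knockout are near those of all genes. Pecam1, which stem cells also express, rose in the exon 2 mutant (1.44 ± 0.10), and so did the epithelial cadherin gene Cdh1 (0.93 ± 0.06), while the neural cadherin gene Cdh2 fell (-0.82 ± 0.11). The mesenchymal cadherin gene Cdh11 fell in the Hprt knockout (-5.57 ± 0.08), as did the syndecan gene Sdc2 (-3.91 ± 0.07) and the collagen receptor gene Ddr2 (-3.56 ± 0.12). The NF-kB target genes, 15 of 16 tested, had 2 rises and 9 falls in the exon 2 mutant (median -0.37) and 5 and 8 in the trap line (median -0.37). Ptgs2 and Il6 fell in both, by -2.62 and -1.95 in the exon 2 mutant and by -2.03 and -2.67 in the trap line, where Icam1 rose. Irf1 was among the 2 that rose, as Icam1 did, in the exon 2 mutant (0.65 ± 0.08).

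**Figure D5:**
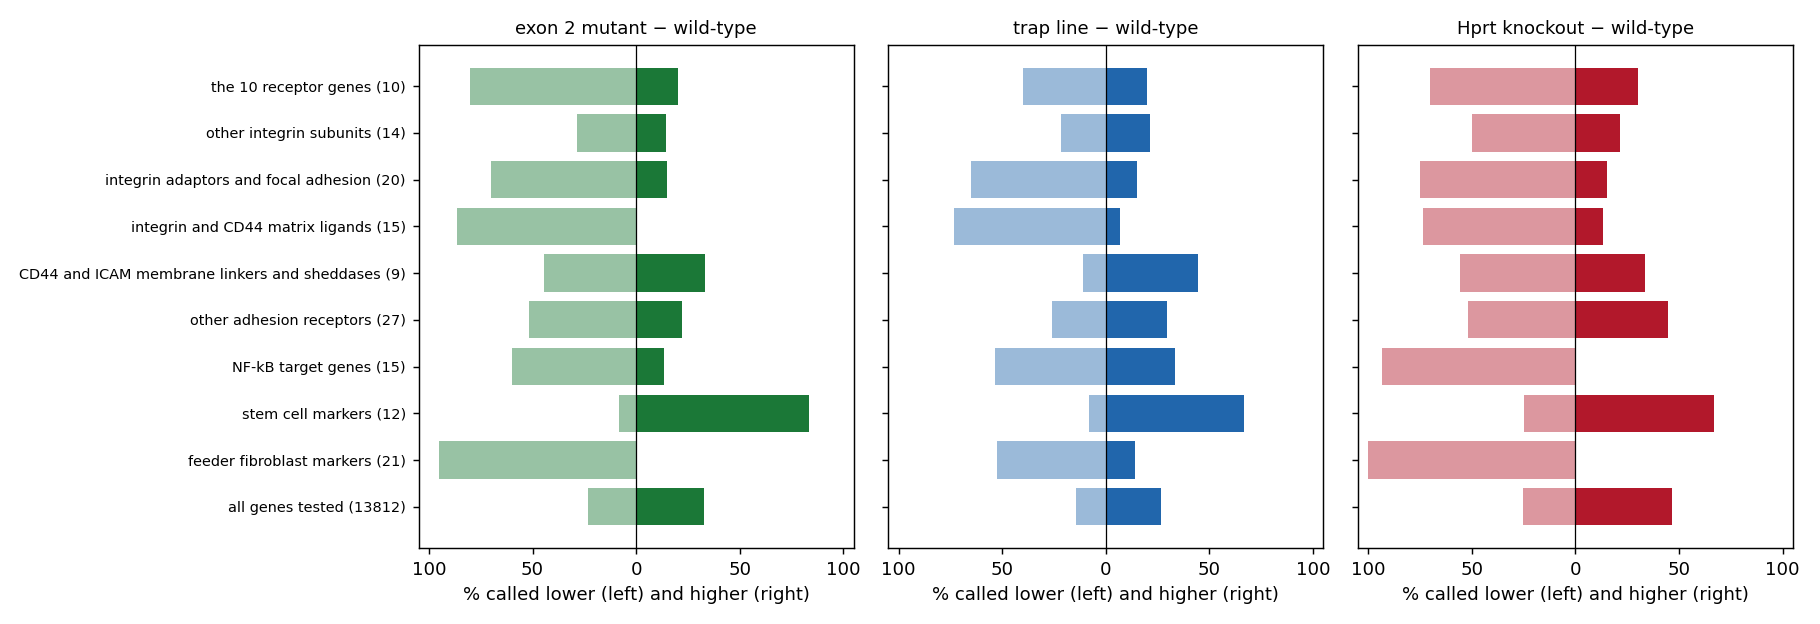
Share of the tested genes of each list that passed as lower (left, pale) or higher (right, dark) than wild-type, with the number tested in brackets, beside all 13812 genes. Feeder fibroblast markers fell in 21 of 21 cases in the Hprt knockout and in 20 of 21 in the exon 2 mutant, and integrin adaptors and matrix ligands were mostly lower in all 3 lines.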

How the data were processed

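The deposited values are log2 intensities of 45101 probe sets on each of 8 arrays, which the authors produced by RMA, per the submitters' processing notes, with its version not given in the sources used here. RMA equalises the distribution of values between arrays, so a shift of most genes is not visible, and it compresses folds near background. Of the probe sets, 64 were controls, 34945 had 1 symbol in the platform annotation, 932 several and 9160 none. Each of 18193 genes was represented by its brightest probe set over the 8 arrays. A gene was tested if 2 or more arrays read above their own 40th percentile, which left 13812 genes. Differences were fitted with limma 3.58.1 in R 4.3.3 (lmFit and eBayes) as 4 group means over all 8 arrays, with 4 residual degrees of freedom (6.86 once moderated). Two-sided p-values were adjusted by Benjamini-Hochberg over all genes of a comparison, with a threshold of 0.05. A fit over all 28768 probe sets past the filter gave the values of single probe sets. The code was checked on simulated data. The arrays' number limits the precision, and the depth of an array is not a count.

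The 10 genes and the lists were chosen with earlier results of these data known. Of the genes on the lists, 5 were not found with a symbol of their own (Itga11, Fermt1, Ptk2, Spp1 and Fbn1). Named were the 10 genes, Gtf2i and Hprt, per list and comparison up to 4 genes with the largest change among called genes with separate arrays, and for each of the 10 the 3 genes most like it, leaving out clone names. Alternatives changed the choice of probe set, the filter, the scaling, the prior, the samples in the fit and the replicate term, and left out each array in turn. Centring set the arrays level at the median of the 12 stem cell markers on each, so it depends on which marker lies in the middle.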

Additional observations from a re-analysis of the deposited data

Results flagged for a closer look

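The effect of the exon 2 mutation against wild-type and that of the trap against the Hprt knockout share no array, and their difference was tested in the same limma model. It passed for 9 of the 10 genes, where 69.7% of all genes passed. The difference, exon 2 effect less trap effect, was -6.79 for Vcam1, -5.54 for Cd44, -2.58 for Itgb5, -2.29 for Itgb1, -2.10 for Itgb3, -1.88 for Itgav and -1.54 for Itga5 on the log2 scale. It was 1.50 for Icam1 and 0.50 for Itga6. Each of these genes had one sign in the exon 2 mutant against wild-type and the other in the trap line against the Hprt knockout. With both lines set against wild-type, 6 of the 9 (Itga5, Itgav, Itgb1, Cd44, Icam1 and Itga6) passed with the same sign in both. Both Hprt knockout arrays lay under the filter level for Vcam1 and Itgb3, so the size of their difference depends on the array background. Itga3 fell in both, and its difference did not pass (0.15, adjusted p = 0.512). The feeder fibroblast markers had medians of -0.57 and 4.07 in these comparisons, and their part was not tested. Lines differ along with the mutations, so that line and mutation cannot be told apart.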

How the results depend on the processing

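Over the 60 values of a gene in a comparison, 40 kept their direction and their side of the threshold in every alternative run. Of 804 values under alternatives, 751 did so, 36 lost a call, 2 gained one and 15 changed sign. The number of the 10 genes called stayed within 1.5 times in each comparison. Centring on stem cell markers raised the count of all genes called to 11282 in trap against wild-type (5672 as reported) and to 10252 in exon 2 mutant against trap (6799). It turned the trap against wild-type values of Itga3 (-0.42), Itga6 (-0.11), Itgb5 (-0.34) and Vcam1 (-0.45), and the exon 2 mutant against trap values of Itga5 (0.32), Itga6 (0.22) and Itgav (0.11), by a shift of all genes of -0.49 and 0.38. Gene by gene the stem cell markers had median changes of only 0.23 and 0.011 in these comparisons. The mean of all probe sets turned Itga3 (-0.051) and Itgb3 (0.011) in trap against wild-type, the most variable probe set turned Itga5 in exon 2 mutant against trap (0.060), and cyclic loess turned Vcam1 in trap against wild-type (-0.047) and the difference of effects of Itga3 (-0.091). Leaving out an array gave -0.025 to 0.16 for Itga3 and -0.024 to 0.090 for Vcam1 in trap against wild-type, -0.16 to 0.034 for Itga5 in exon 2 mutant against trap, and -0.028 to 0.32 for the difference of effects of Itga3. The cause of the other changes was not tested. Of the genes called, 58.4% were higher for the exon 2 mutant, 64.9% for the Hprt knockout and 64.5% for the trap line against wild-type, 38.9% in trap against Hprt knockout and 40.7% in exon 2 mutant against Hprt knockout. Cyclic loess moved these to 47.7%, 49.9%, 54.2%, 52.5% and 54.6%, and centring on stem cell markers to 43.0%, 47.7%, 5.28%, 21.6% and 53.5%, with 90.5% in exon 2 mutant against trap (49.8% as reported).

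Deviations of same-numbered arrays correlated at -0.28 to 0.18 between groups, so the numbers do not pair the arrays across all groups. Wild-type with trap (0.14) and exon 2 mutant with Hprt knockout (0.18) were above 0, and the other pairs were below 0. A deviation shared by arrays of different numbers was not tested, and a block by number would not remove it. With the replicate number as a block, of all genes 7249 passed in the exon 2 mutant against wild-type (7674 without it) and all 10 receptor genes did. The block lost Itga6 in exon 2 mutant against trap (8 of 10 called) and Itga5 in exon 2 mutant against Hprt knockout (8 of 10 called). Itgb3 was not tested under the stricter filter.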
